A study of Mus musculus with 4 samples.

Results

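Calmodulins are small calcium-binding proteins with helix-loop-helix calcium sites called EF hands. Calcium that enters the cytoplasm binds them, and the loaded protein switches on kinases, the phosphatase calcineurin and the calcium pumps of the cell surface. In mammals the ubiquitous calmodulin is made from several genes that encode the same protein, while skin also makes calmodulin-like proteins in its differentiating layers, among them Calm4 and Calm5 (skin calmodulin-related factors) and Calml3. The members described here are the rows of the gene count table named Calm2, Calm3, Calml3, Calm4 and Calm5, 5 of the 56493 genes listed. All 5 were found and all 5 passed the filter on low counts. Calml4 is not a member and is given beside them.

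The samples were 4 libraries of mouse dorsal epidermis. There were 2 from cKO mice, which lack Stim1 and Stim2 in epithelium through Cre under the keratin 14 promoter, and 2 from control mice that carry the floxed alleles of both genes. STIM1 and STIM2 sense the calcium content of the endoplasmic reticulum and open surface calcium channels when it falls, so the comparison asks how the calmodulin genes stand in epidermis without these sensors. Cells outside the keratin 14 lineage keep both genes in this model. Age, sex and the number of mice per library are not given in the sources used here, so p-values measure only the spread between these libraries, which may be technical. The libraries count the 3' ends of transcripts.

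Total counts per library ran from 118858 (cKO replicate 2) to 322426 (control replicate 2), and 4243 genes were tested. Stim1 had 23 and 6 counts across the cKO libraries and 24 and 62 in control, and Stim2 had 0 and 1 against 3 and 18. Stim1 did not pass the test (log2 fold change -0.98, edgeR adjusted p 0.671), and Stim2 was under the count filter. Which exons the Cre removes is not given in the sources used here, so 3' counts may lie outside them. All 6 basal and all 14 granular and suprabasal keratinocyte genes on the marker lists were detected, whereas 2 of 3 endothelial markers were at 0 in every library. Summed over 8 skeletal muscle markers, the libraries held 44.5 and 135 CPM (counts scaled to a common library size after TMM normalisation) in cKO against 1425 and 974 in control. Of these markers 4 were called lower (Myh4, Pvalb, Acta1 and Tnnc2). The 8 hair shaft and inner root sheath markers summed to 550 and 416 CPM in cKO against 1628 and 1632 in control, with 3 of 8 at 0 in every library. Most of these sums was Tchh, named after its values were seen (400 and 292 CPM in cKO, 1371 and 1271 in control). The 3 tested hair markers were all lower in both cKO libraries than in both control libraries, as were 19.6% of all genes tested. For Krt25 and Krt71, under the count filter, the groups overlapped. The 5 sebaceous markers summed to 987 and 1607 CPM in cKO against 944 and 869 CPM in control, both cKO values above, though the groups overlapped with library totals only. The 6 T cell markers summed to 239 and 180 CPM against 331 and 246 CPM, both below. The groups overlapped for the sums of 5 Langerhans cell markers (1035 to 3762 CPM), 5 fibroblast markers (36.4 to 607 CPM) and 4 melanocyte markers (86.2 to 427 CPM).

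The coding sequences show how far the skin genes have moved from the ubiquitous ones, and they also bear on whether short reads can tell the genes apart. In GENCODE M21 transcripts the reading frames of Calm2, Calm3 and Calml3 have 149 codons each, that of Calm4 has 148 and that of Calm5 has 117. Coding bases of Calm2 were 82.7% identical to those of Calm3, 75.6% to Calml3, 60.1% to Calm4 and 48.7% to Calm5, counting gaps as differences. A pattern of the EF-hand calcium loop, searched in the translated frames, occurred 4 times in each gene except Calm5, where it occurred 2 times. The 12 codons of the first loop (coding bases 61 to 96) are printed below, with capitals at each base that differs from Calm2.
Calm2: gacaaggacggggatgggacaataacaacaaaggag
Calm3: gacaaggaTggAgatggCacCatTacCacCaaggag
Calml3: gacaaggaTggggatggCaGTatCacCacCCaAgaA
Calm4: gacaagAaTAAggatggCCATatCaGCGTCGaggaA
Calm5: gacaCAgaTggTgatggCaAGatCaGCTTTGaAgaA
In this loop Calm3 differed from Calm2 at 7 bases, Calml3 at 10 and Calm4 at 16. The first loop found in Calm5 also differed at 16, but its bases are those of the second loop of Calm4 (coding bases 169 to 204). Loops were paired by their order alone, so the Calm5 number does not measure its distance from a matching loop.

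Stretches that recur in another gene were few. Of the 50-base windows of the Calm4 transcript, 4.72% also occurred in Calm5, and of those of Calm5, 7.59% occurred in Calm4. For Calm2, 12.7% of windows occurred in the pseudogenes Gm7308, Gm15720 or Gm14480, and for Calm3, 2.77% in Gm5881. Calml3 shared 0 windows. Among windows that start in the last 300 bases of each transcript, where a 3' kit places its reads, 0 were shared for any of the 5 members. The Calm2 copies themselves held few counts. Gm15720 had 0 and 2 in cKO and 5 and 10 in control, Gm7308 had 2 and 2 against 4 and 4, and Gm14480 had 0 in every library.

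Calml3, Calm4 and Calm5 lie close together on chromosome 13. In the table's coordinates, for which the submitters' processing notes name GRCm39, Calml3 (ENSMUSG00000063130) runs from 3852896 to 3854316 on the minus strand, Calm4 (ENSMUSG00000033765) from 3887757 to 3888673 on the plus strand and Calm5 (ENSMUSG00000099269) from 3904173 to 3904761 on the plus strand. The feature length of each of these 3 genes equals its span (1421, 917 and 589 bases), so the table lists no intron in their longest transcripts. Calm2 (ENSMUSG00000036438) lies on chromosome 17 from 87740840 to 87754363 on the minus strand and Calm3 (ENSMUSG00000019370) on chromosome 7 from 16649304 to 16658039 on the minus strand. Their exons cover 1467 and 2423 bases, less than their spans.

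Calm4 and Calm5 share their upstream sequence almost base for base. RefSeq promoter windows (GRCm38.p6) were at hand for 3 of the 5 members, Calm3, Calm4 and Calm5. The stretch that ends at the base before the annotated Calm4 start and its counterpart at Calm5 are printed because the counts of these genes differ so widely, with capitals at the single base that differs. The Calm4 stretch is chr13:3837551-3837756 and the Calm5 stretch chr13:3853923-3854128, both on the plus strand. Between the end of the Calm5 stretch and the annotated Calm5 start lie 44 more bases. The windows upstream of the 2 starts that were searched for motifs are thus shifted by 44 bases against each other.
Calm4: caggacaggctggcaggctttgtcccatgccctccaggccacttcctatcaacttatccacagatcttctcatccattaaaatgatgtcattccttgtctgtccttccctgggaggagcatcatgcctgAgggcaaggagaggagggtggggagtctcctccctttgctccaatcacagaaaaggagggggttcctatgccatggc
Calm5: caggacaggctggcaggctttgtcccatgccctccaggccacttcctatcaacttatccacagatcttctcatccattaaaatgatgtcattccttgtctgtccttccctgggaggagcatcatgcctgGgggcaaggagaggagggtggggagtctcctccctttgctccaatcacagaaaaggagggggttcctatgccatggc
The stretches match at 205 of 206 bases (99.5%), with the substitution A130G counted from the first printed base, Calm4 first. Over 250 bases upstream of the start and on both strands, CCAAT occurred 1 time each in Calm4 and Calm5 and 0 times in Calm3, against 33.8% of 32851 promoter windows of that length with a match. The letters GGAAA, the core bound by NFAT factors, occurred 1 time in Calm3 and 0 times in Calm4 and Calm5, against 55.6% of windows. TGANTCA (the AP-1 motif, in 6.75% of windows), TGACGTCA (the cyclic AMP element, 1.55%), TATAAA (12.4%), AACNGGTT (grainyhead-like factors, 1.79%) and GGGNGTGG (KLF factors, 15.9%) occurred 0 times in all 3. No motif of the list contains another one.

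Calm4 had the highest level of the members in every library, in CPM and per feature length. It had 3284 and 707 counts in cKO replicates 1 and 2 and 563 and 2184 in control replicates 1 and 2. The normalised values were 13279 and 7946 CPM in cKO against 3004 and 6974 CPM in control. The lower cKO library thus lay just above the higher control library, and the control values differed 2.32-fold from each other. The group means (± SD, n = 2) were 10612 ± 3771 CPM for cKO and 4989 ± 2807 CPM for control. The log2 fold change of Calm4 was 1.09 with a standard error of 0.51, a 2.13-fold higher level with a 95% interval from 0.990 to 4.57 (adjusted p 0.597 and unadjusted p 0.0526 in edgeR's quasi-likelihood test). This separation of the groups depended on the scaling. With library totals only, the cKO values were 13236 and 6619 CPM against 3231 and 7810 CPM, and the groups overlapped. They also overlapped when scaled by all counts in the table (11638 and 5948 CPM against 2811 and 6774 CPM). The difference also depended on single libraries, since the log2 fold change was 1.84 without control replicate 2, 0.61 without control replicate 1 and 0.62 without cKO replicate 1. In these bulk samples a change in the number of cells of a type and a change in RNA per cell cannot be told apart.

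Calm5, the neighbour of Calm4, drew few reads. Its counts were 18 and 3 in cKO and 13 and 21 in control, or 72.8 and 33.7 CPM against 69.4 and 67.1 CPM. The groups overlapped, and the second cKO library held 3 counts, no more than a count of 0 can stand for. The log2 fold change was -0.24 with a standard error of 0.67 (edgeR adjusted p 0.992). The 95% interval ran from -1.68 to 1.19, so a 2-fold change either way lay inside it. Within a library, Calm4 had 182 and 236 counts per count of Calm5 in cKO and 43.3 and 104 in control. The annotated Calm5 transcript ends 31 bases after its stop codon, against 331 bases for Calm4. Whether Calm5 reads fell past that end, outside the counted feature, was not tested.

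Calml3, the third member of the cluster, encodes a calmodulin-like protein of epithelial cells. It had 130 and 66 counts across the cKO libraries and 54 and 119 in control, or 526 and 742 CPM against 288 and 380 CPM. Both cKO libraries were above both control libraries, under each of the 5 scalings tried (TMM, DESeq2 size factors, upper quartile, library totals and all counts in the table). The TMM-scaled sebaceous marker sum was higher in the same libraries, though the groups overlapped for Soat1, Awat1, Awat2 and Mc5r and only Scd1 was separated. The sum of the 6 basal markers was higher there too (8613 and 6125 CPM in cKO against 5768 and 4630 CPM in control). Of these basal markers 1 (Krt14) was above and 1 (Krt15) below in both cKO libraries. The part of either sum in the Calml3 values was not tested. The log2 fold change was 0.90 with a standard error of 0.43 and a 95% interval from -0.02 to 1.83 (edgeR adjusted p 0.607, unadjusted p 0.0553). Other genes around the cluster were then examined. Of 17 other genes within 250000 bases of it, 4 had at least 10 counts in all. Gdi2, which recycles Rab proteins, had 57 and 26 counts in the cKO libraries against 39 and 85 in control, with a log2 fold change of 0.10. Net1, an exchange factor for small GTPases, had 39 and 5 counts against 22 and 36 and a log2 fold change of -0.01. The groups overlapped for both. The others, Tasor2 (5 and 6 against 8 and 4 counts) and Asb13 (3 and 1 against 3 and 5), were too low to be tested.

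Calm2, a ubiquitous calmodulin gene, was the 1 member with lower TMM-scaled values in both cKO libraries. Calm5 also had this pattern with library totals only and with all counts in the table. Calm2 had 78 and 24 counts across the cKO libraries and 88 and 192 in control, or 315 and 270 CPM against 470 and 613 CPM. Both cKO libraries were below both control libraries, under each of the 5 scalings tried. The group means (± SD, n = 2) were 293 ± 32.3 CPM for cKO and 541 ± 102 CPM for control. The log2 fold change was -0.88 with a standard error of 0.43 and a 95% interval from -1.80 to 0.04 (edgeR adjusted p 0.625, unadjusted p 0.0590). The muscle, hair and T cell marker sums given above were lower in the same libraries, and their part in the Calm2 values was not tested.

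Calm3 had the lowest mean level per feature length, whereas in CPM the mean of Calm5 was lower (60.7 against 115 for Calm3). Calm3 had 33 and 14 counts across the cKO libraries and 19 and 21 in control. Its normalised values were 133 and 157 CPM in cKO against 101 and 67.1 CPM in control, without overlap under each of the 5 scalings tried. The log2 fold change of Calm3 was 0.79 with a standard error of 0.53 (edgeR adjusted p 0.790). Calml4 had 0 counts in every library.

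**Figure D1:**
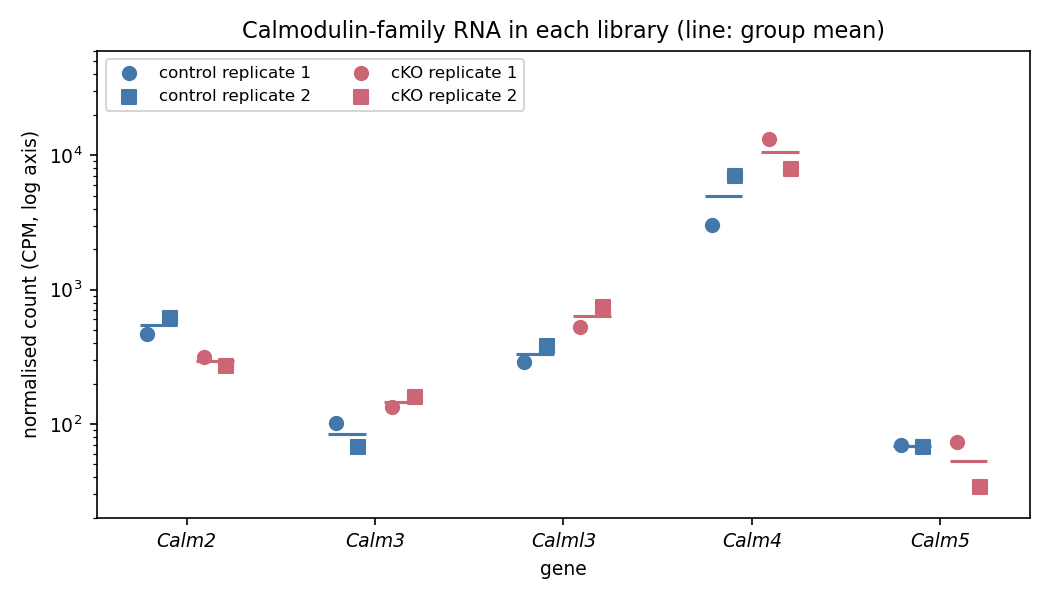
Normalised counts (CPM, log axis) of the 5 members in each of the 4 libraries, with a line at each group mean. Calm4 sits between 3004 and 13279 CPM, Calm2 is lower in both cKO libraries, and the groups of Calm5 overlap. With library totals as the only scaling, or with all counts in the table, the groups of Calm4 overlap and Calm5 is lower in both cKO libraries.

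None of the 5 members passed an adjusted p under 0.05 in edgeR, where 0.848% of the genes tested did. Of all genes tested, 0.660% were called higher and 0.189% lower in cKO. At that adjusted threshold the count was also 0 with DESeq2 and with limma-voom. At an unadjusted p under 0.05, which 8.39% of the genes tested reached in edgeR, the count was 0 in edgeR. It was 1 with DESeq2 (Calm4, unadjusted p 0.0254) and 3 with limma-voom (Calm4, 0.0171, Calml3, 0.0274, and Calm2, 0.0316). The share of all genes that reached this threshold with DESeq2 or limma-voom is not given here, so these counts have no background to be read against. In CPM after TMM scaling, 3 members (Calm3, Calml3 and Calm4) had both cKO values above both control values and 1 (Calm2) had both below. Of all genes tested, 18.9% lay above and 19.6% below in this way, 38.5% together. With library totals only, or with all counts in the table, Calm4 overlapped and Calm5 joined Calm2. The median log2 fold change of the 5 members was 0.79, against 0.01 over all genes tested. The biological coefficient of variation of the fit was 35.5%.

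Shares within a library need no scaling between libraries, and they were compared next. Among the summed counts of the 5 members, Calm4 took 92.7% and 86.9% in the cKO libraries, with 95% Wilson intervals of 91.8% to 93.5% and 84.4% to 89.0%. It took 76.4% and 86.1% in the control libraries, with intervals of 73.2% to 79.3% and 84.7% to 87.4%. The second library of each group had overlapping intervals, so these libraries could not be told apart by the Calm4 share. The Calm2 share was 2.20% and 2.95% in cKO and 11.9% and 7.57% in control, and no cKO interval (upper bounds 2.74% and 4.35%) reached a control interval (lower bounds 9.79% and 6.60%). Calm5 took 0.508% and 0.369% in cKO against 1.76% and 0.828% in control, with intervals that overlapped between groups. Calml3 (3.67% and 8.11% against 7.33% and 4.69%) and Calm3 (0.931% and 1.72% against 2.58% and 0.828%) overlapped outright. With 2 libraries a group, the exact two-sided permutation test cannot give a p below 0.333, the value reached for Calm4, Calm2 and Calm5. Intervals of this kind cover counting error only. Because Calm4 held most of the summed counts, the shares of the other members also move with the Calm4 counts.

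**Figure D2:**
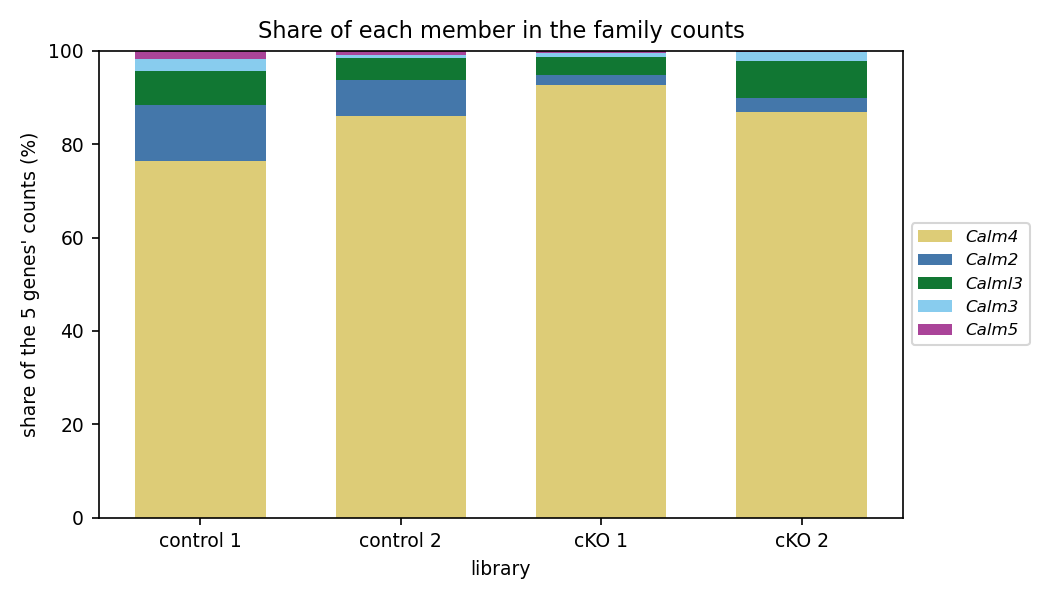
Share of each member (%) in the summed counts of the 5 genes, as 1 stacked bar for each library. Calm4 fills 76.4% to 86.1% of the bar in control and 86.9% to 92.7% in cKO, and the Calm2 segment narrows from 11.9% and 7.57% to 2.20% and 2.95%.

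Because a 3' kit reads 1 end per transcript, counts were taken as the main scale, and the same shares were computed from counts per feature length. Per length, Calm4 took 94.99% and 91.3% in cKO against 82.8% and 90.2% in control, and Calm2 took 1.41% and 1.94% against 8.09% and 4.96%. Mean levels over the 4 libraries, per kilobase of feature, were 8507 CPM for Calm4, 341 for Calml3, 284 for Calm2, 103 for Calm5 and 47.4 for Calm3. Calm4 ranked 10 among all genes of the table on this scale and 9 in CPM. The order of Calml3 and Calm2 differed between the groups, with 446 against 199 CPM per kilobase in cKO and 235 against 369 in control, and within a library Calml3 had 1.67 and 2.75 counts per count of Calm2 in cKO and 0.614 and 0.620 in control.

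Calm2 and Calm3 encode the same protein, and their counts were set against each other. Calm3 had 0.423 and 0.583 counts per count of Calm2 in cKO and 0.216 and 0.109 in control. Both cKO ratios were above both control ratios (exact two-sided permutation p 0.333, the smallest this design allows). The Calm2 share of the 5 members averaged 2.57% ± 0.528 (SD, n = 2) in cKO and 9.75% ± 3.09 (SD, n = 2) in control, a difference of -7.18 percentage points that is larger than the spread between replicates.

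**Figure D3:**
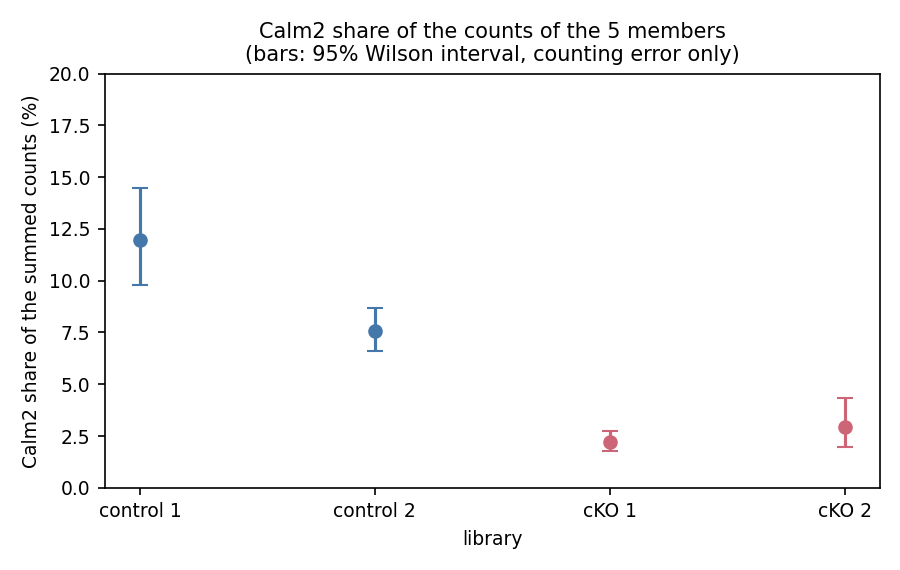
Share of Calm2 (%) in the summed counts of the 5 members in each library, with 95% Wilson intervals for counting error. Both cKO points (2.20% and 2.95%) lie under both control points (11.9% and 7.57%), and no interval of one group reaches an interval of the other. The share also depends on the Calm4 counts, which make up most of the sum.

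Calm4 was then set beside Calm2 and Calml3. It had 42.1 and 29.5 counts per count of Calm2 in cKO against 6.40 and 11.4 in control, without overlap. Against Calml3, its neighbour, it had 25.3 and 10.7 in cKO and 10.4 and 18.4 in control, and the groups overlapped.

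Among the genes of the differentiating layers set beside it, Calm4 kept its steadiest ratio over the libraries with Krtdap. The ratio ranged 2.36-fold for Sbsn, 2.67-fold for Lor, 2.87-fold for Krt10 and 19.1-fold for Flg. Counts of Calm4 per count of Krtdap, a small secreted protein of differentiating keratinocytes, were 1.73 and 1.68 in cKO and 1.60 and 1.41 in control, a 1.22-fold range over libraries whose Calm4 level spanned a 4.42-fold range. Per count of Sbsn (suprabasin), the ratio was 1.78 and 1.75 in control and 4.13 and 2.43 in cKO. Per count of Krt10, the suprabasal keratin, chosen after its values were seen, it was 1.86 and 1.88 in control and 4.14 and 5.36 in cKO. Both control ratios were thus nearly equal for Sbsn and for Krt10, while both cKO ratios were higher. The Krtdap ratios were also higher in both cKO libraries (1.73 and 1.68 against 1.60 and 1.41). Loricrin (Lor) gave 2.91 and 4.16 in cKO and 3.96 and 1.56 in control, with overlap. Filaggrin (Flg), the precursor of the granular layer's filament-binding protein, went the other way, with 1.48 counts of Calm4 per count of Flg in both cKO libraries against 28.2 and 22.3 in control.

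**Figure D4:**
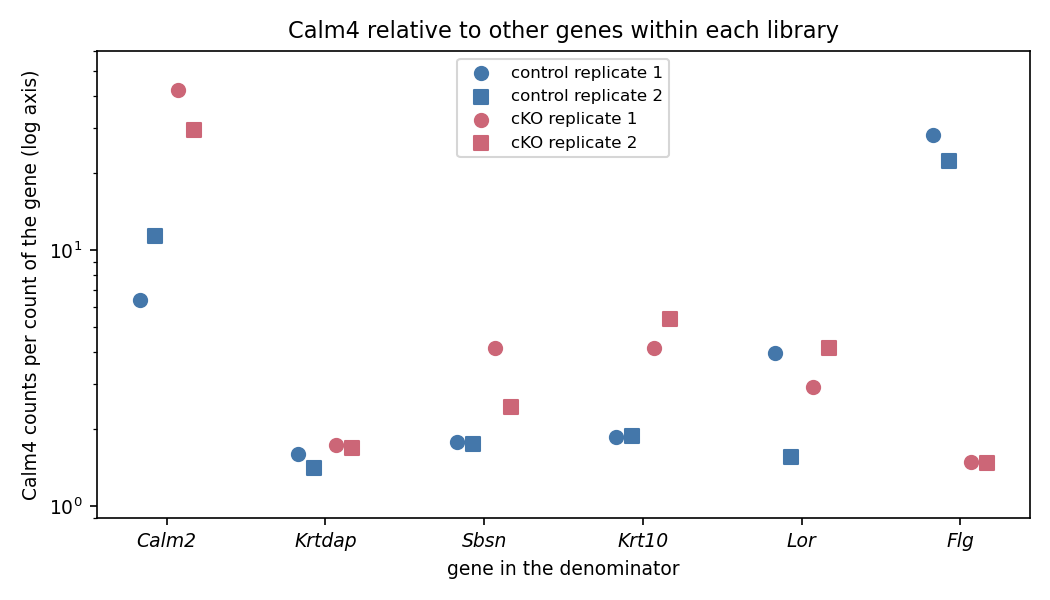
Counts of Calm4 per count of 6 other genes within each library (log axis). The Krtdap ratios lie between 1.41 and 1.73 in all 4 libraries and, like the Calm2, Sbsn and Krt10 ratios, are higher in both cKO libraries. The Flg ratio falls from 28.2 and 22.3 in control to 1.48 in both cKO libraries.

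The levels of the differentiation genes themselves were as follows. Flg was called higher in cKO, with 2218 and 479 counts against 20 and 98 and a log2 fold change of 5.07 (edgeR adjusted p 0.000593), as was the protease Casp14, with 48 and 11 counts against 0 and 2 (adjusted p 0.0123). Krtdap had a log2 fold change of 0.87 (edgeR adjusted p 0.724), Lor of 0.31 (0.988) and Sbsn of 0.19 (0.992). Of the 14 granular and suprabasal genes, 12 were tested, 2 were called higher and 0 lower, and their median log2 fold change was 0.25 against 0.01 over all genes tested. At an unadjusted p under 0.05 in edgeR, which 8.39% of all genes tested reached, 3 of these 12 were higher (Flg, Casp14 and Krt1) and 2 were lower. The lower ones, chosen after their values were seen like Krt1, were Ivl (involucrin, log2 fold change -1.20, unadjusted p 0.0125, adjusted p 0.359) and the transglutaminase Tgm3 (-2.15, unadjusted p 0.0139, adjusted p 0.368). Krt10 had a log2 fold change of -0.18. The summed level of the 14 genes was 32663 and 20297 CPM in cKO and 8863 and 22910 CPM in control, so the lowest library was control replicate 1, as for Calm4. Of 6 basal genes, all tested, 0 were called by edgeR, their median was 0.22, and 2 had an unadjusted p under 0.05. Krt14, the keratin whose promoter drives the Cre, had 1077 and 267 counts in the cKO libraries against 174 and 271 in control (log2 fold change 2.04, edgeR adjusted p 0.0507). Krt15, a basal and follicular keratin, had 208 and 138 against 535 and 657 (log2 fold change -1.06, adjusted p 0.526). Krt5 and the integrin subunit Itga6 had log2 fold changes of 0.59 and 0.13.

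Proteins that calmodulin acts on were examined from lists of known targets. Of 42 calmodulin-activated enzymes and pumps, 25 were detected and 9 were tested, of which 4 had a positive and 5 a negative log2 fold change, with a median of -0.21. The edgeR test called 0 of them. An unadjusted p under 0.05, which 8.39% of all genes tested reached, was found for 1 of them. That gene was Atp2b1, a calcium pump of the plasma membrane, with 68 and 23 counts across the cKO libraries and 84 and 247 in control (log2 fold change -1.21, standard error 0.45, edgeR adjusted p 0.430). The related pump Atp2b4 had 43 and 18 counts against 63 and 118 (log2 fold change -0.94, adjusted p 0.596). For calcineurin, the catalytic subunit Ppp3ca had 56 and 20 counts against 29 and 72, with overlapping groups and a log2 fold change of 0.22. The regulatory subunit Ppp3r1 had 16 and 4 counts against 24 and 35 and a log2 fold change of -1.06 (edgeR adjusted p 0.709).

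Of 35 calmodulin-binding scaffolds and reservoir proteins, 29 were detected and 13 were tested, 4 with a positive and 9 with a negative log2 fold change and a median of -0.16. Neither an adjusted nor an unadjusted p under 0.05 was reached by any of the 13 in edgeR. Iqgap1, a scaffold of the cell cortex, had 117 and 39 counts across the cKO libraries and 102 and 239 in control (log2 fold change -0.52). Myo6, a myosin with calmodulin light chains, had a log2 fold change of 0.58, Marcks, a membrane protein that holds calmodulin in reserve, of 0.84, and Add3, an adducin of the membrane skeleton, of -1.56 from 4 and 2 counts against 12 and 15. Of other EF-hand genes of the calmodulin superfamily, the centrins Cetn2 (10 and 9 counts in cKO, 25 and 20 in control) and Cetn3 (30 and 21 against 28 and 23) were tested, with log2 fold changes of -0.58 and 0.65.

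**Figure D5:**
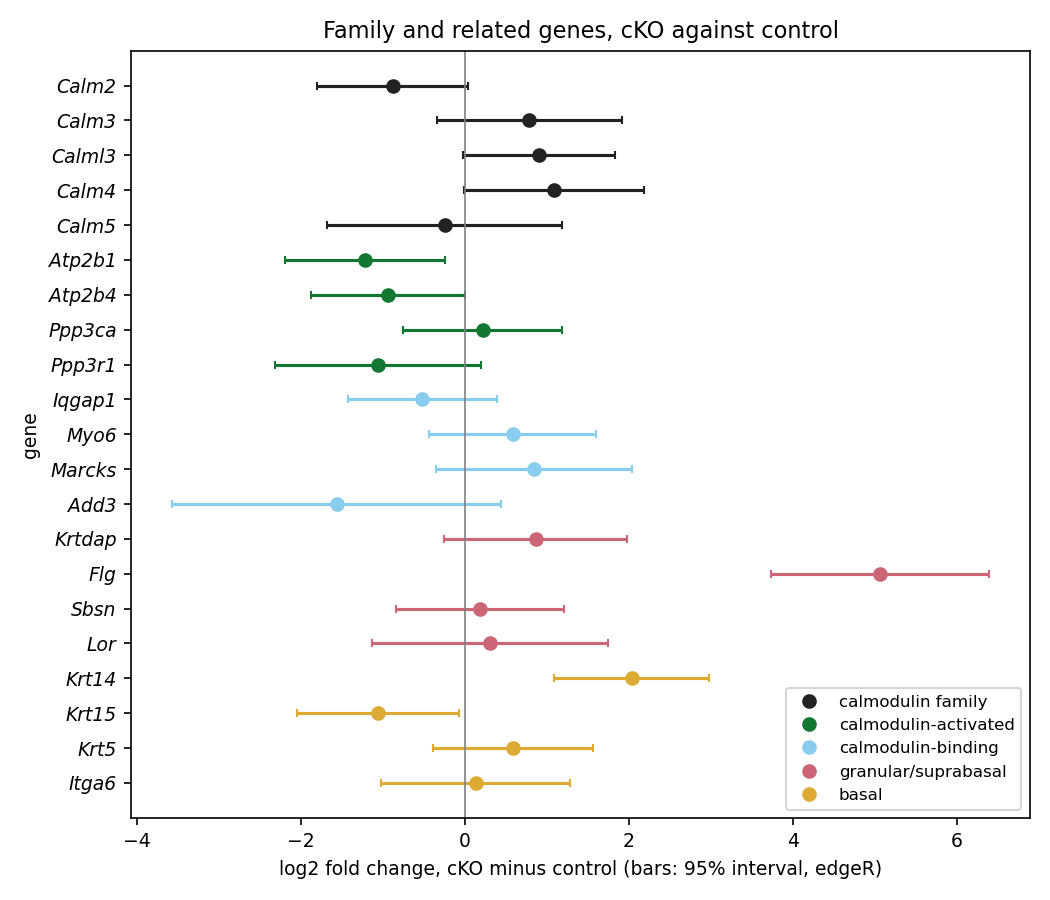
Log2 fold changes (cKO minus control) with 95% intervals from the edgeR fit for the 5 members, the named calmodulin-activated and calmodulin-binding genes, and the granular and basal genes with the highest levels. The intervals of all 5 members include 0, while that of Flg runs from 3.74 to 6.39; library totals as the only scaling move the median of all genes to -0.24.

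The genes whose profile over the 4 libraries was most like that of each member were sought among 3571 other genes that averaged 50 CPM or more, by the Euclidean distance between centred log2 CPM profiles. With 4 libraries such a likeness is a description. Nearest to Calm4 were Pard6g (distance 0.16), Elovl6 (0.18) and H1f2 (0.21), a polarity protein, a fatty acid elongase and a linker histone. Calml3 was nearest to Gm6254 (0.08), Bicd2 and Map1lc3b (0.13 each), and Calm3 to Pkm (0.06), Gpx1 (0.11) and Rnf169 (0.12). Calm2 was nearest to Rabac1 (0.05), Pcmtd1 (0.07) and Pura (0.08), and Calm5 to Syncrip (0.06), Coro1c (0.06) and Sptbn1 (0.11). Among the members themselves, Calm3 and Calml3 were the most alike (0.70) and Calm2 and Calm4 the least (2.14), and the neighbours Calm4 and Calm5 were 1.79 apart.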

How the data were processed

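The authors deposited 1 table of raw counts per gene for the 4 libraries, made from total RNA of thiocyanate-separated epidermis with the QIAseq UPX 3' kit, per the labels' protocols. The submitters' processing notes name Trim Galore 0.6.7, Trimmomatic 0.39, cutadapt 3.7, STAR 2.7.10a, featureCounts 2.0.1 and GRCm39. The use of strand, of molecular identifiers and of multiply aligned reads is not given in the sources used here. Libraries were grouped by their titles, and 0 per-sample columns were left unused.

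All genes passing filterByExpr (minimum count 10, minimum total 15; 4243 genes with 87.6% of counts) were fitted in edgeR 4.0.16 (R 4.3.3) with TMM scaling and genotype as the only term. Quasi-likelihood p-values were adjusted by Benjamini-Hochberg over all genes tested, with a threshold of 0.05. Standard errors are the absolute log2 fold change over the root of F. Alternatives included DESeq2 1.42.0 and limma-voom (limma 3.58.1). Transcripts came from GENCODE M21 (GRCm38) and were aligned with Biopython 1.88. No table coordinate was combined with reference coordinates.

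Members and gene lists were chosen with earlier results of these data known. Members, Calml4, Stim1 and Stim2 are always named. From the enzyme and binding lists, the 3 highest and the 3 with the smallest p are named, from the granular and basal lists the 4 highest, and every called list gene. The 3 genes nearest in profile to each member are named, with all genes within 250000 bases of the chromosome 13 cluster that have at least 10 counts. Results of 1 gene that the rule names are not reported here.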

Additional observations from a re-analysis of the deposited data

How the results depend on the processing

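With 2 shallow libraries a group, the log2 fold changes of Calm2, Calm3, Calml3 and Calm4 kept their sign in all 14 alternatives each. Leaving out 1 library in turn gave -1.06 to -0.66 for Calm2, 0.52 to 1.10 for Calm3, 0.66 to 1.14 for Calml3, 0.61 to 1.84 for Calm4 and -1.04 to 0.10 for Calm5, whose sign reversed without cKO replicate 2. The share differences between groups, in percentage points, ranged from 3.69 to 13.4 for Calm4 and from -9.37 to -4.99 for Calm2. They changed sign for Calm3 (-1.25 to 0.50, main value -0.38) and Calml3 (-2.34 to 2.10, main value -0.12). The alternative that widened the family is not reported here. The number of genes called over the table, 28 higher and 8 lower, was 49 and 26 without a count filter, 12 and 3 with limma-voom, 26 and 15 with library totals, and 40 and 15 at a mean of at least 10 CPM. It ran from 34 to 59 higher and from 8 to 34 lower with 1 library left out, where more genes passed the filter and the lone library of a group is assumed to vary like the other group. The called genes of the 5 pathway lists numbered 2, or 2 to 4 with 1 library left out.

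The replicate numbers share only a label. Deviations of replicates 1 and 2 correlated at -0.20 between the groups over 4243 genes. With the replicate block, 16 genes were higher and 1 lower, 1 pathway list gene and 0 members were called, and the Calm4 log2 fold change was 1.17. A block with crossed numbers, chosen after seeing the data, called 90 higher and 57 lower genes, 7 pathway list genes and 1 member (Calm4, log2 fold change 1.16).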
